A study of Mus musculus with 74 samples.

Results

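The comparison described here set the inner cell mass (ICM) of cloned mouse blastocysts against their trophectoderm (TE) at the level of single genes, by the histone mark H3K9me3. The members were the autosomal protein-coding genes whose promoter or gene body lay in H3K9me3 peaks of one lineage and held no peak base of the other. They numbered 118 of 20807 genes. The promoter was taken as the 1 kb on either side of the transcription start site and was called covered when at least 50% of its bases lay in peaks. The gene body ran from the annotated start to the annotated end and was called covered at 25% or more. By these limits 15 promoters were covered in the ICM and free of peaks in the TE, 9 promoters were covered in the TE and free of peaks in the ICM, and the gene bodies numbered 51 and 47. In all, 4 genes were one-sided at both promoter and body, all toward the ICM.

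The embryos were made by somatic cell nuclear transfer (NT), which replaces the chromosomes of an oocyte with the nucleus of a somatic cell. The oocytes came from B6D2F1 females, hybrids of C57BL/6j mothers and DBA/2 fathers, the donor nuclei came from cumulus cells, the somatic cells that surround the oocyte, and no allele or agent set the ICM and TE samples apart. Blastocysts were divided into ICM and TE by micromanipulation. How many cells of the other lineage a sample held was not tested. The ICM at this stage holds both epiblast and primitive endoderm cells. Per the labels each lineage had 2 H3K9me3 libraries and 2 input libraries, which the authors merged before calling peaks. There was thus 1 peak list per lineage, no replicate error could be given and no difference could be tested. Intervals on shares are Wilson 95% intervals for counting error alone, and genes are not replicates of a lineage. A gene without a peak was below the calling threshold at this depth and is not shown to lack the mark. In these pooled cells, fewer cells carrying the mark and less mark per cell cannot be told apart.

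H3K9me3 is the trimethylated form of lysine 9 of histone H3. It is written by the methyltransferases Suv39h1, Suv39h2 and Setdb1, is bound by HP1 proteins, and marks compact, mostly silent chromatin, above all at repeats and at clustered gene families such as those of zinc finger proteins and olfactory receptors. Donor-cell H3K9me3 is a known barrier to reprogramming after nuclear transfer. In the blastocyst the ICM gives rise to the embryo proper and the yolk sac endoderm, and the TE gives rise to the placenta.

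The sequence around the start site is shown for 5 of the one-sided promoters, because these are the stretches where one lineage carried a peak and the other did not. All are from the mouse genome GRCm38.p6 (mm10) and read 5′ to 3′ on the strand of the gene. Capitals mark CG dinucleotides, the sites of DNA methylation, except in the histone promoter. In the histone promoter they mark the octamer ATTTGCAT, the CCAAT box and the TATA box TATAAA, each searched on both strands. The first 3 were one-sided toward the ICM, and the last 2 toward the TE.
Zfp986, chr4:145868594-145868793, plus strand: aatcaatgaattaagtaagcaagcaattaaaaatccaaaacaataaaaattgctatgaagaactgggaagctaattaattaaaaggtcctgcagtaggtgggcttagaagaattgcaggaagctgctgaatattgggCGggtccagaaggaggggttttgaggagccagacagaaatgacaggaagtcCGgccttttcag
Hist1h2ba, chr13:23934157-23934456, minus strand: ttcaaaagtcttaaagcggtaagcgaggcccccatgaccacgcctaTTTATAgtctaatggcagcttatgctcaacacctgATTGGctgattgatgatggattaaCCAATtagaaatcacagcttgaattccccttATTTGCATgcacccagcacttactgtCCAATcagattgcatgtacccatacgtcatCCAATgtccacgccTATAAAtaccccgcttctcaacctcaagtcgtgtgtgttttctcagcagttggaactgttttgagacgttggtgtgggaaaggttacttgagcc
Psg26, chr7:18484178-18484377, minus strand: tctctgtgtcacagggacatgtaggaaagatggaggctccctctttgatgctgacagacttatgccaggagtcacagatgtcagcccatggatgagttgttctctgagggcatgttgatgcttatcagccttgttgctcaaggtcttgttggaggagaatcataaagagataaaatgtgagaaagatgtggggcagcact
Nmur2, chr11:56041011-56041210, minus strand: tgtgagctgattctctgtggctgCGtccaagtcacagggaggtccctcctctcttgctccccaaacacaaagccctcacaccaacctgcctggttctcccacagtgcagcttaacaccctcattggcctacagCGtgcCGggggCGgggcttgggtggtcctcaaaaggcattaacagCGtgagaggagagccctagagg
Rgr, chr14:37048965-37049164, minus strand: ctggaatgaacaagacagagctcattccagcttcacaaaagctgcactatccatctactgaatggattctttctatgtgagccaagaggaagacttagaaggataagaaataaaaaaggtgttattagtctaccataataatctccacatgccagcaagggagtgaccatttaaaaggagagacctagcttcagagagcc
Of the stretches other than the histone promoter, Nmur2 held 5 CG dinucleotides in 200 bases, Zfp986 held 2, and Psg26 and Rgr held 0. The histone stretch lies between Hist1h2ba and Hist1h2aa, which are transcribed away from each other, so it serves both genes. It held 1 octamer, 4 CCAAT boxes and 2 TATA boxes, and 0 matches to the cAMP response element TGACGTCA. Over the 300 bases upstream of all 20807 genes, 1.68% held the octamer, 39.4% the CCAAT box, 13.8% the TATA box and 2.00% the cAMP response element. These matches describe the letters of the window and are not evidence of binding.

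Most genes carried no peak in either lineage, and most covered genes were shared. No peak base was found in either list at 19201 promoters (92.3%) and 11581 gene bodies (55.7%). Promoters covered in the ICM numbered 238 (1.14% of all genes), and those covered in the TE numbered 217 (1.04%), with 142 (0.682%) covered in both. Of the 238 promoters covered in the ICM, 59.7% (interval 53.3 to 65.7%) were also covered in the TE, 34.0% were partly covered there, and the 15 with no TE base made 6.30% (3.86 to 10.1%). Of the 217 covered in the TE, 65.4% (58.9 to 71.5%) were covered in the ICM, 30.4% partly, and the 9 with no ICM base made 4.15% (2.20 to 7.69%). Against all genes tested the one-sided promoters were 0.0721% toward the ICM and 0.0433% toward the TE. The intervals of these shares overlap, so the numbers of one-sided promoters in the lineages were not told apart by counting error. The counts rest on the rule: at a limit of 25% they were 90 and 85, and when 50% of either the promoter or of a peak had to overlap, they were 259 and 291.

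Gene bodies gave a like picture with more members. Bodies were covered in the ICM at 624 genes (3.0%), in the TE at 564 (2.71%) and in both at 420 (2.02%). Of the 624, 67.3% (63.5 to 70.9%) were covered in the TE as well and 8.17% (6.27 to 10.6%) had no TE base, the 51 one-sided bodies, or 0.245% of all genes. Of the 564, 74.5% (70.7 to 77.9%) were covered in the ICM and 8.33% (6.33 to 10.9%) had no ICM base, the 47 one-sided bodies, or 0.226% of all genes. In genes of at least 5 kb the one-sided bodies numbered 4 and 3. A wider count, of genes whose coverage differed by at least 20 percentage points, gave 223 promoters higher in the ICM (1.07%) and 235 higher in the TE (1.13%). For bodies it gave 155 (0.745%) and 106 (0.509%). The mean coverage over all genes was 1.72% in the ICM and 1.71% in the TE at promoters, and 3.41% and 3.33% at bodies.

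**Figure D1:**
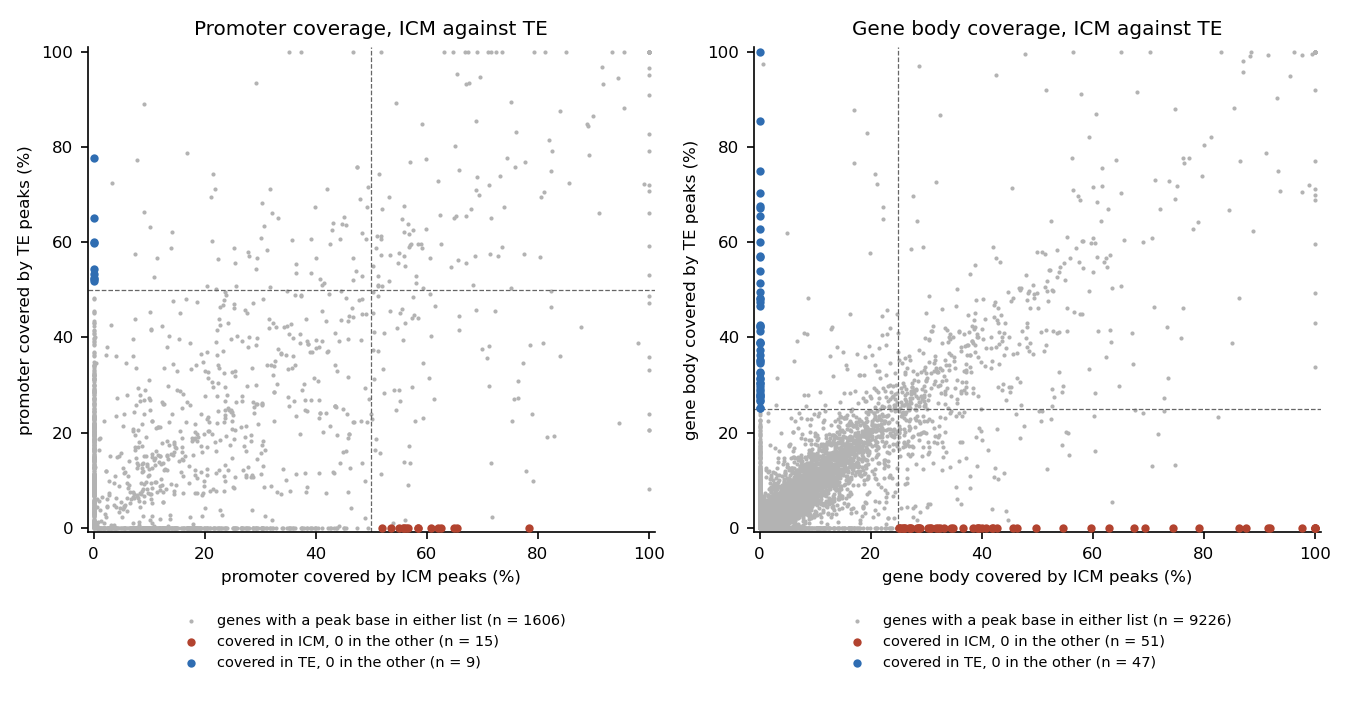
Share of bases in H3K9me3 peaks in the ICM (horizontal axis, percent) against the TE (vertical axis, percent) for promoters and gene bodies of autosomal protein-coding genes, 1 point per gene, with the one-sided genes coloured by lineage. The one-sided genes lie along the axes (15 and 9 promoters, 51 and 47 bodies), while the 142 promoters and 420 bodies covered in both lie away from both axes, at or above 50% (promoters) and 25% (bodies) in each lineage.

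The peaks that made genes one-sided had lower fold enrichment than those shared by both lineages. Fold enrichment, the signal of a peak over input as given by the authors' peak caller, had a median of 2.80 in the one-sided promoters of each lineage, against 3.49 (ICM) and 3.60 (TE) in promoters covered in both. In bodies the medians were 2.76 (ICM) and 2.72 (TE), against 3.64 and 3.73. Distances to the nearest peak of the other lineage were also taken. A TE peak lay within 5 kb of 12 of the 15 ICM promoters and 34 of the 51 ICM bodies, and an ICM peak lay within 5 kb of 7 of the 9 TE promoters and 26 of the 47 TE bodies. The share of all genes with a peak this close was not computed, so these counts are not shown to be particular to one-sided genes. Some genes lay close to the limits. Ubqlnl (52.0%) and 4930467E23Rik (53.6%) were just inside for ICM promoters and Cyp2b19 (49.4%) and Rbm25 (47.5%) just outside. For TE promoters Scgb2b2 (51.9%) and 1700012A03Rik (52.3%) were just inside, and Scgb1b3 (48.3%) and Gm5592 (48.1%) just outside.

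Genes with one-sided bodies were short. The median length of the one-sided bodies was 1314 bases in the ICM and 1172 bases in the TE, against 11034 for bodies covered in both and 17629 for all genes. For one-sided promoters the median gene length was 8621 bases in the ICM and 15855 bases in the TE. Genes of 1 exon made up 62.7% of the ICM bodies and 63.8% of the TE bodies, against 16.9% of the shared bodies and 6.25% of all genes. A single broad peak can fill a short body, and the share of a body that lies in peaks depends on its length by construction. Promoters of low CpG content, as most tissue-restricted genes have, made up 13 of the 15 ICM promoters and 6 of the 9 TE promoters, against 43.7% of the promoters covered in both and 31.7% of all promoters. The one-sided bodies fell in 47 loci on 13 chromosomes in the ICM and 41 loci on 13 chromosomes in the TE, counting genes within 50 kb as 1 locus.

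Among the promoters covered in the ICM alone were those of a zinc finger gene, cell-surface and odour receptors, a pregnancy-specific glycoprotein and a pair of germline histones. Zfp986, a member of a cluster of zinc finger genes on chromosome 4, had the highest fold-weighted coverage. Its promoter was 64.9% covered in the ICM by a peak with a fold enrichment of 3.38 and a −log10 q of 8.40. That peak ran from position −5692 to position 298 relative to the start site. In the TE a peak of fold enrichment 3.67 covered nearly the same upstream stretch, from position −5441 to position −1076, and stopped short of the promoter window by 76 bases. The difference at Zfp986 was therefore in where a shared peak ended. The promoter was covered at 100% in cumulus cells and at 61.8% in 8-cell embryos, and at 0% in morulae.

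The promoter of the olfactory receptor gene Olfr1333 was 78.5% covered in the ICM, and a TE peak lay 323 bases from it. Its body was covered more in the TE (19.55%) than in the ICM (13.2%). Cd300ld2, of a family of inhibitory and activating receptors of myeloid cells, was 62.6% covered in the ICM and 100% covered at every stage from the 2-cell embryo to the morula. It was among the promoters for which the TE stood apart from the embryos before it. The promoter of Psg26, a pregnancy-specific glycoprotein gene whose products are made by placental trophoblast, was 55.7% covered in the ICM. It was 72.5% covered in morulae and 100% in cumulus cells, with the nearest TE peak 2134 bases away. The body of Psg26 differed the other way, with 1.20% covered in the ICM and 10.6% in the TE. The body of Cd300ld2 followed its promoter (7.83% and 0%). Fam172a was 56.3% covered in the ICM and 52.6% in morulae, and all of the covered bases were repeat-masked. The remaining named promoters, Gm3005 (56.5%) and Gm10945 (62.0%), are predicted genes, and each of their windows overlaps another gene.

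Hist1h2ba and Hist1h2aa encode the testis-type histones H2B and H2A, which replace their somatic forms in male germ cells. Both were one-sided toward the ICM at promoter and body through 1 peak of 1309 bases, which covered 65.4% and 58.3% of the promoters and 100% and 42.8% of the bodies. The nearest TE peak to the promoters lay 20803 and 21109 bases away. The peak was weak, with a fold enrichment of 2.57 and a −log10 q of 1.76. At the 2-cell stage the same stretch carried a peak of fold enrichment 4.44 and −log10 q 6.12, which covered 94.7% of the Hist1h2ba promoter. In 4-cell embryos 87.0% was covered, in 8-cell embryos 17.8%, and in morulae 0%. The ICM peak was lost when peaks were limited to a −log10 q of at least 2 or when the longer list, that of the ICM, was trimmed of its weakest peaks to the covered length of the TE list, which was left whole.

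The other genes one-sided at both promoter and body were the secretoglobin gene Scgb1b7, of a family of small secreted salivary and lacrimal proteins, and Ubqlnl, an intronless ubiquilin-like gene. Scgb1b7 was 55.9% covered in the ICM at its promoter and 97.6% over its body, yet a TE peak began 2 bases from the body. Ubqlnl was 52.0% covered at its promoter and 45.6% over its body, with TE peaks 2713 and 3713 bases away.

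Among promoters covered in the TE alone, Nmur2, which encodes the receptor for the neuropeptide neuromedin U, had the highest fold-weighted coverage, with 77.6% of the window in a peak of fold enrichment 2.97 and −log10 q 2.48. It had been covered by 42.7% in morulae and 0% in cumulus cells, and the nearest ICM peak lay 890 bases away. Rgr, which encodes a retinal opsin, was 59.7% covered in the TE, 100% in 8-cell embryos and 88.9% in morulae, so here the ICM stood apart from the earlier embryos. Asb18, a substrate receptor subunit of ubiquitin ligases, had the same pattern, with 60.1% in the TE and 100% in 8-cell embryos and in morulae. The body of Rgr differed the other way from its promoter, with 6.32% covered in the ICM and 1.39% in the TE. That of Nmur2 followed its promoter, with 3.23% and 12.5%. Gm7945 was 53.3% covered in the TE and 100% in morulae. Dcp2, which encodes the mRNA decapping enzyme, was the exception, because its promoter was 52.4% covered in the TE and held no peak base in any of the other 9 lists. Its peak had a fold enrichment of 2.81 and a −log10 q of 2.00. Pnlip, which encodes pancreatic lipase, was 54.4% covered, 9530002B09Rik 65.2% and 1700012A03Rik 52.3%.

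**Figure D2:**
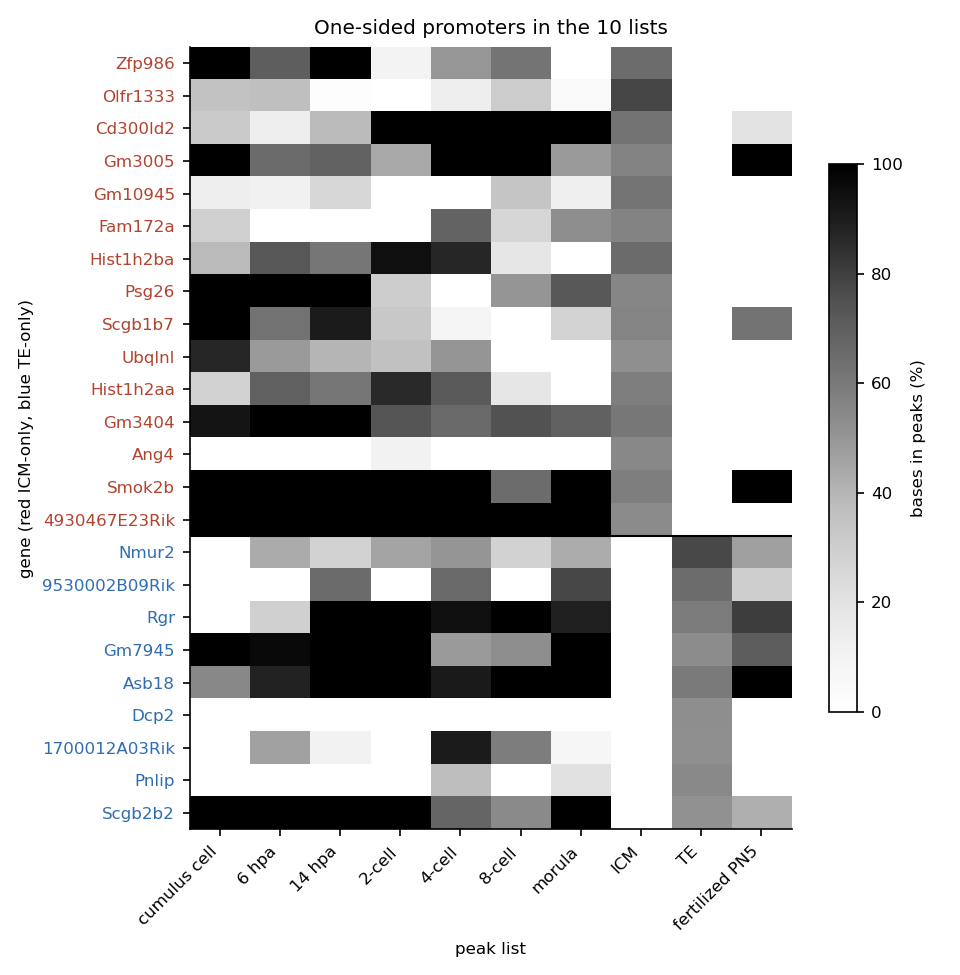
Coverage of each one-sided promoter (rows) in the 10 peak lists (columns), as percent of the window of 1 kb on either side of the start site, coloured from 0 to 100%. The cloned-embryo lists run from donor cumulus cells (CC) to ICM and TE, with fertilized zygotes (PN5) last, and most promoters are covered at some earlier stage, whereas Dcp2 is filled in the TE column alone.

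Most one-sided promoters had carried the mark at an earlier stage. Of the 15 ICM promoters, 8 were covered in cumulus cells, 9 at 6 h after activation and 9 at 14 h after it. The counts were 6 in 2-cell embryos, 9 in 4-cell embryos, 7 in 8-cell embryos and 6 in morulae. None was without a peak base in all of the other lists, against 4.93% of the promoters covered in both and 52.3% of all promoters. Of the 9 TE promoters, 3 were covered in cumulus cells, 3 at 6 h, 5 at 14 h, 4 in 2-cell embryos, 6 in 4-cell embryos, 5 in 8-cell embryos and 5 in morulae. In the fertilized zygotes 3 of the ICM promoters and 3 of the TE promoters were covered. Earlier coverage was also frequent among the promoters covered in both lineages, of which 46.5% were covered in cumulus cells and 54.2% in morulae. Among all 20807 promoters the covered share was 3.75% in cumulus cells, 7.17% at 6 h and 3.31% at 14 h. It was 1.94% in 2-cell, 2.55% in 4-cell and 2.29% in 8-cell embryos, 1.66% in morulae and 3.65% in the fertilized zygotes. The covered one-sided promoters are too few for these stage shares to be told apart between the lineages, since the intervals for the morula were 19.8 to 64.3% for the ICM promoters and 26.7 to 81.1% for the TE promoters.

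**Figure D3:**
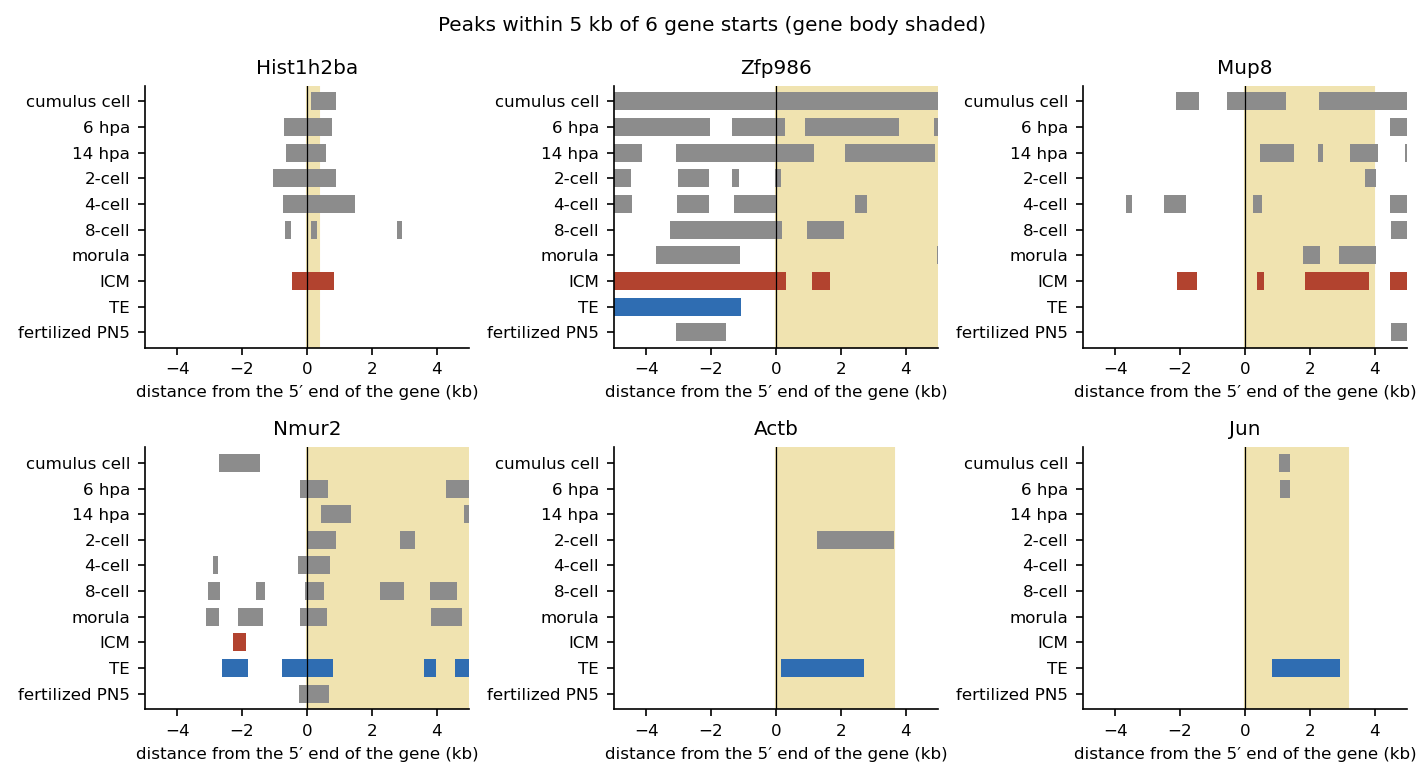
H3K9me3 peaks within 5 kb of the start of Hist1h2ba, Zfp986, Mup8, Nmur2, Actb and Jun in each of the 10 lists, drawn as bars at distance from the start in kb along the direction of transcription. At Zfp986 the ICM and TE peaks share their upstream part, at Hist1h2ba peaks are present in cumulus cells, in every cloned-embryo list up to the 8-cell stage and in the ICM but not in morulae, and at Actb and Jun the TE peak has no ICM counterpart within the window.

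Over gene bodies, the TE-only genes with the most covered bases included widely used genes. Actb, which encodes the cytoskeletal beta-actin, was 70.2% covered in the TE by 1 peak of 2557 bases, with a fold enrichment of 2.98 and a −log10 q of 3.26. The nearest ICM peak lay 12654 bases away, and none of the other lists had a peak over Actb except the 2-cell list. That 2-cell peak covered 64.8% of the body with a fold enrichment of 7.33 and a −log10 q of 45.9, a value reached or passed by 71 of 105358 peaks in the 2-cell list, where the median was 2.83. Of the TE-covered bases of Actb 68.4% were exonic, against 73.6% of the whole body. Jun, which encodes an AP-1 transcription factor in 1 exon, was 65.4% covered by a peak of fold enrichment 3.21 and −log10 q 3.92, and the antisense gene Junos overlaps it. The ICM peak nearest to Jun was 30780 bases away. No peak base was found over Jun from 14 h to the morula.

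Zfp281, a zinc finger transcription factor of pluripotent cells, was 32.5% covered in the TE and held no peak base in any of the other 9 lists. Zfp553, another zinc finger gene, was 30.4% covered and overlaps Sept1. Nhlrc1, which encodes the ubiquitin ligase malin, was 60.1% covered by the end of a wider peak of fold enrichment 3.57. The metallothionein gene Mt1 (35.0%), the molybdenum cofactor gene Mocs3 (41.3%) and the testis kinase gene Tssk6 (35.1%) followed. All of these genes have promoters rich in CpG. Among the 8 TE-only bodies with the most covered bases, Olfr1331 (28.8%) and Gm10999 (42.3%), the latter overlapping Ccdc7b, were outside that class.

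Promoter class went with how the TE-only bodies had been marked before. Of the 47 TE-only bodies, 11 had CpG-rich promoters, and 10 of these 11 held no peak base from the 4-cell stage to the morula, with a median distance of 14120 bases to the nearest ICM peak. Of the other 36, 5 held none over those stages and the median distance was 3004 bases. In the ICM 7 of 51 one-sided bodies had CpG-rich promoters, and 2 of these held none from the 4-cell stage to the morula, against 6 of the other 44. Over all genes with CpG-rich promoters, 61.2% had no body peak over these stages, against 43.2% of genes with CpG-poor promoters. The grouping was chosen after the values were seen and the difference between the lineages was not tested.

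Differences that were not one-sided were found at other genes in both directions, and the examples were named after their values were seen. Actg1, which encodes gamma-actin, was 67.4% covered over its body in the TE and 22.2% in the ICM. Cldn4, which encodes a tight junction claudin, was 76.7% covered in the TE and 17.1% in the ICM. Utp3, for a ribosome biogenesis factor, was 87.9% covered in the TE and 17.1% in the ICM. In the other direction, Ran, which encodes the GTPase of nuclear transport, was 22.8% covered over its body in the ICM and 0% in the TE. Of 76 ribosomal protein gene bodies, 10 had a peak base in the TE and 4 in the ICM. These shares were below those of all genes, 40.68% in the TE and 39.97% in the ICM. The body of Rpl23a stood at 24.2% in the TE against 0% in the ICM, Rpl10l at 21.0% against 0%, and Rpl39l at 21.3% against 47.6%.

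The ICM-only bodies with the most covered bases were mainly predicted genes and members of multicopy families. Such genes were as frequent among all TE-only bodies. Gm or Rik symbols, mostly predicted genes and cDNA clones, made up 31.4% of the ICM-only and 34.0% of the TE-only bodies. They made up 30.5% of the bodies covered in both and 8.48% of all genes. Gm7942 (62.9%, 2657 bases) and Gm6351 (39.3%) are predicted genes on chromosome 5, and both were covered in cumulus cells at 100% and in morulae at 86.8% and 78.1%. AK157302 was 91.9% covered in the ICM, although the nearest TE peak was 91 bases away, and it held no peak in cumulus cells or morulae. Olfr1350 was 33.3% covered. The predicted gene Gm8005 was 28.7% covered. Ppp1r26, which encodes a regulatory subunit of protein phosphatase 1, was the single gene with a CpG-rich promoter among the 8 with the most covered bases, with 25.2% of the body in a peak that lay entirely in exons. It held no peak in cumulus cells or at any cloned-embryo stage from 14 h to the morula, and 5.35% of it was covered at 6 h. Kbtbd7, a CpG-rich gene of 1 exon and an adaptor of ubiquitin ligases, was 30.4% covered in the ICM and held no peak from 14 h to the morula.

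**Figure D4:**
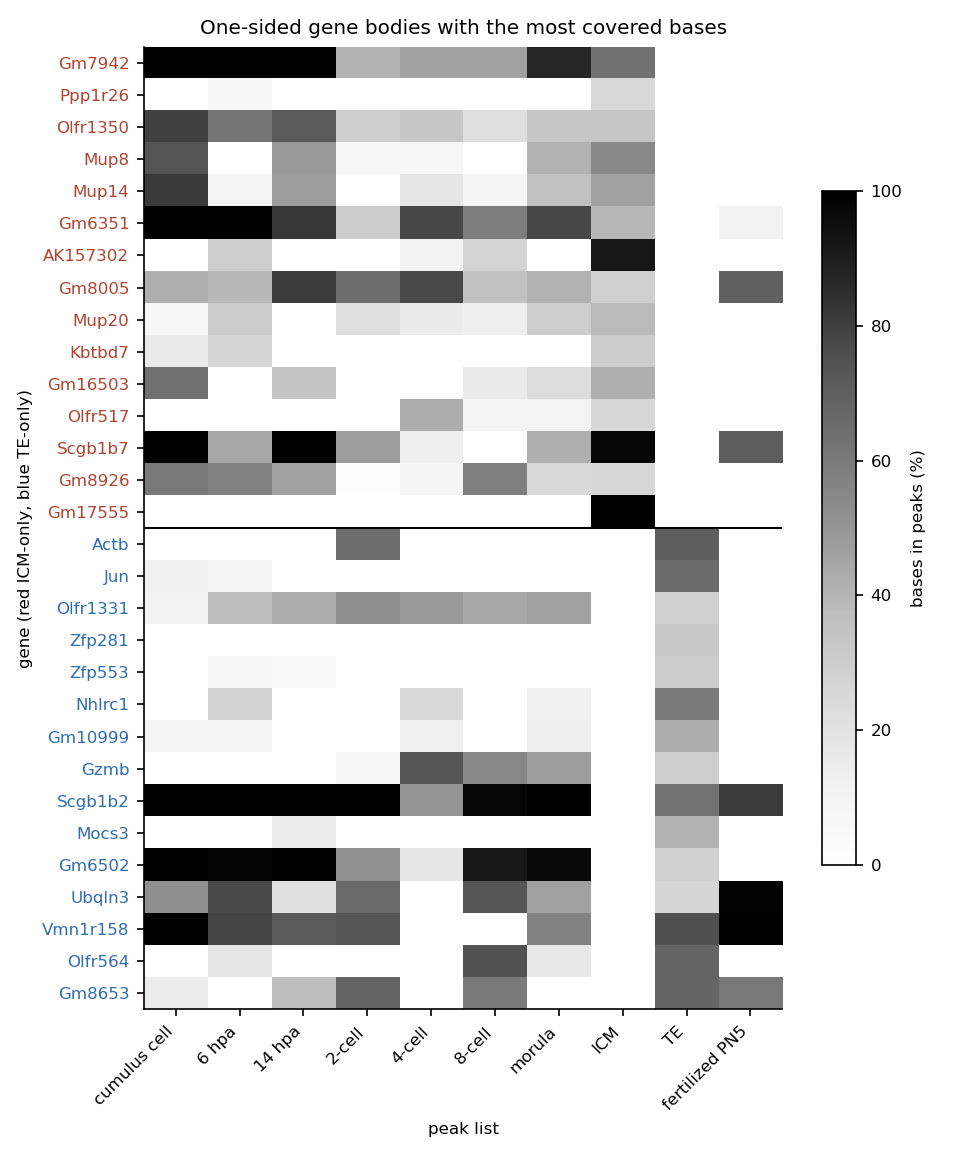
Coverage of 15 one-sided gene bodies per lineage, taken from those with the most covered bases (rows) in the 10 peak lists (columns), as percent of the gene body, coloured from 0 to 100%. ICM rows such as Gm7942 and Mup8 are filled in cumulus cells and morulae as well, whereas TE rows such as Actb, Jun and Zfp281 are at 0% in most other columns.

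The Mup genes, which encode the major urinary proteins that carry pheromones, had a wide gap between the lineages in the share of covered bodies, 63.6% in the ICM and 27.3% in the TE. Over all genes these shares were 3.0% and 2.71%, so the family was heavily covered in both lineages. Of 22 genes on chromosome 4 (mm10), from the start of Mup4 at 59956804 to the end of Mup21 at 62150863, 14 bodies were covered in the ICM and 6 in the TE, and mean coverage was 34.9% in the ICM and 17.8% in the TE. Coverage was at least 20 points higher in the ICM at 12 genes and in the TE at 2, against 0.745% and 0.509% of all genes. The median difference was 21.6 points, against 0 over all genes. Mup8 (54.6% in the ICM), Mup14 (46.3%) and Mup20 (38.4%) held no TE base, and neither did Mup11, which at 21.9% in the ICM was under the limit. Over all genes 0.245% of bodies were one-sided toward the ICM. The exceptions were Mup1, at 6.13% in the ICM and 35.0% in the TE, and Mup5, at 27.2% and 58.5%. Morulae stood at 40.6% for Mup8 and 35.8% for Mup14. The Mup list was added after these values were seen. The genes are near-identical copies, so reads can be assigned to the wrong copy and differences between single Mup genes are uncertain.

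The secretoglobin genes, also added after their values were seen and also in near-identical copies, showed one-sided bodies in both directions. Of 34 genes 3 were one-sided toward the ICM (Scgb1b7 at 97.6%, Scgb2b19 at 39.97% and Scgb1b27 at 32.5%) and 5 toward the TE, among them Scgb1b2 at 62.9%. Over all genes the one-sided bodies made up 0.245% toward the ICM and 0.226% toward the TE. Scgb1b3 was 97.4% covered in the TE and 0.679% in the ICM. Most Scgb1b and Scgb2b genes had been fully covered in cumulus cells, Scgb1b7 and Scgb1b2 at 100%.

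Keratin and keratin-associated genes, which encode hair and epithelial structural proteins, were covered over 13 bodies in the ICM and 5 in the TE out of 113. One-sided members numbered 5 toward the ICM, among them Krtap19-5 (100%) and Krtap21-1 (42.1%), and 2 toward the TE, Krtap1-4 (57.2%) and Krtap6-3 (42.7%). Coverage was at least 20 points higher in the ICM at 11 and in the TE at 3, against 0.745% and 0.509% of all genes. Olfactory receptor genes gave 6 one-sided bodies toward the ICM and 7 toward the TE out of 1128, with 29 (2.57%) and 28 (2.48%) covered, against 3.0% and 2.71% of all genes. Vomeronasal type 1 receptor genes gave 2 each out of 208, and defensin genes 1 each out of 64. Over all genes the one-sided bodies were 0.245% toward the ICM and 0.226% toward the TE.

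Zinc finger genes of the Zfp family, whose clusters are established targets of H3K9me3, had a high covered share in both lineages. Of 385, 93 bodies (24.2%) were covered in the ICM, 95 (24.7%) in the TE and 82 in both, against 3.0% and 2.71% of all genes. The 2 one-sided bodies were Zfp281 and Zfp553, and the 1 one-sided promoter was that of Zfp986, numbers too small to set against the one-sided shares of all genes (0.245% and 0.226% of bodies, 0.0721% and 0.0433% of promoters). Histone clusters had 2 one-sided members of 67, the pair of germline histones.

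Imprinted genes, at which H3K9me3 is known to accompany DNA methylation on the silent allele, had no one-sided member, and larger differences toward the TE were found at several promoters. A list of 66 genes is too small to set its lack of one-sided members against the shares of all genes. Of 66 promoters 8 were covered in the ICM and 9 in the TE, with 8 in both, and mean coverage was 11.2% in the ICM and 14.9% in the TE. Coverage was at least 20 points higher in the TE at 6 promoters and in the ICM at 1, against 1.13% and 1.07% of all genes, and the covered shares of all genes were 1.04% (TE) and 1.14% (ICM). The neuronatin gene Nnat stood at 46.7% in the ICM and 100% in the TE. The growth inhibitor gene Cdkn1c stood at 0% in the ICM and 40.7% in the TE. Sgce stood at 67.4% and 100%, its neighbour Peg10 at 72.4% and 100%, Mcts2 at 79.3% and 100%, and the insulin-like growth factor 2 receptor gene Igf2r at 10.3% and 41.7%. In morulae Nnat was covered at 75.5% and Sgce at 96.1%, between the ICM and TE values, and Cdkn1c at 0%, as in the ICM.

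Promoters of genes that define the lineages were scarcely marked in either list, as were promoters in general. The peaks could therefore not be used to check which cells a sample held. None of 20 regulators of the ICM and epiblast, 16 of the primitive endoderm and 10 markers of cumulus cells had a promoter peak base in either lineage. Of 22 TE regulators and markers, Bmp4 had one in the ICM and Cdx2 one in the TE, the latter over 0.75% of its promoter. Over all genes a promoter peak base was found at 5.77% in the ICM and 5.87% in the TE. A body peak base was found (ICM and TE) at 2 and 2 ICM and epiblast regulators, 9 and 7 primitive endoderm regulators, and 2 and 6 TE genes. The cumulus cell markers had 2 and 2, and the shares of all genes were 39.97% and 40.68%. No list among these had a one-sided member. The lists are too small to set against the one-sided shares of all genes (0.245% and 0.226% of bodies, 0.0721% and 0.0433% of promoters). Krt8, a keratin of the TE, was 13.0% covered over its body in the TE and 0% in the ICM, under the limit. Among 28 H3K9 methylation enzymes and partners, also too few for that comparison, none was one-sided. Morc2a, which encodes an ATPase that works with the HUSH silencing complex, was 87.8% covered at its promoter in the ICM and 42.2% in the TE. Atf7ip, which encodes the partner of Setdb1, stood at 76.0% and 83.2%.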

How the data were processed

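H3K9me3 and input were sequenced by ULI-NChIP-seq, a native chromatin immunoprecipitation on micrococcal nuclease fragments, in 74 libraries of 20 groups. Per the methods, reads were trimmed with Cutadapt (1.16), mapped to mm10 with BWA, merged over replicates with SAMtools, cleared of duplicates with Picard and drawn down to 1 common read number per list. Broad peaks were called over input with MACS2. Its version, its threshold and the treatment of reads with several matches are not given in the sources used here. The peak lists deposited by the authors hold coordinates, the fold enrichment ratio over input, and −log10 of the p and q values as the authors' caller wrote them. The ICM list held 134555 autosomal peaks over 154.1 Mb with −log10 q from 1.48, and the TE list 139367 peaks over 145.23 Mb with −log10 q from 1.43. The files do not hold read counts, so no depth is given for single genes.

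Coverage is the percent of bases of a promoter or gene body in peaks, computed with Python 3.11.15, numpy 2.4.6 and pandas 2.3.3 for GENCODE protein-coding genes on 19 autosomes. Scripts were tested on simulated peaks. Groups came from the labels. Named are the 8 one-sided promoters with the highest fold-weighted coverage and the 8 one-sided bodies with the most covered bases per lineage, genes one-sided at both, and up to 3 members per family list. Some genes that the rule names are not reported here. The members and lists were chosen with earlier results of these data known. Alternatives changed the coverage limits, the peak filters and the windows. Promoters were classed by their 500-base windows: CpG-rich where the observed over expected CpG reached 0.75 with GC of 55% or more, and CpG-poor where it nowhere passed 0.48.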

Additional observations from a re-analysis of the deposited data

Results flagged for a closer look

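The sex chromosomes and the mitochondrial genome lie outside the autosomal comparison, and are given here because they held peaks above the limit that 0 counts allow, which is 3. Of 948 protein-coding genes on chromosome X, 5 promoters were covered in the ICM and free of TE peaks (among them Mageb2 and Btbd35f24), and 5 were covered in the TE and free of ICM peaks (among them Smc1a and Rhox4c). For gene bodies on chromosome X the count was 21 toward the ICM, against 3 toward the TE, and several of the 21 belong to multicopy families. On the autosomes the one-sided shares (ICM and TE) were 0.0721% and 0.0433% of promoters and 0.245% and 0.226% of bodies. How many bodies on chromosome X were covered in each lineage is not given here, and the difference between the lineages was not tested. Of 183 genes on chromosome Y 0 were one-sided. The design fixed this count in advance, because the donor cumulus cells came from females and hold no chromosome Y. On the mitochondrial genome 5 peaks were called in the ICM list and 2 in the TE list. These calls are not shown to be H3K9me3, and their origin was not tested.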

How the results depend on the processing

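No paired analysis was possible because each lineage has 1 merged peak list, and no single library could be left out of it. Of 50 recomputed values 26 stayed within 1.5 times the main count or within the interval of the main share, and 24 moved. With 15 ICM-only and 9 TE-only promoters in the main analysis, a limit of 25% gave 90 and 85, a limit of 75% gave 1 and 1, filling gaps of up to 1 kb between peaks gave 30 and 15, a window of 500 bases on each side gave 49 and 40, one of 2 kb on each side gave 2 and 1, and calling a promoter by 50% of either the promoter or the peak gave 259 and 291. TE-only promoters were 14 when under 10% in the ICM counted as none, and 20 when fold enrichment had to reach 3, where the shares without the other lineage were 11.9% (ICM) and 13.4% (TE). With 51 and 47 one-sided bodies in the main analysis, a limit of 10% gave 125 and 128, a limit of 50% gave 16 and 13, and genes of at least 5 kb gave 4 and 3. TE-only bodies were 27 without the first 1 kb, and ICM-only bodies were 32 when a −log10 q of at least 2 was asked of the covering list alone, an alternative chosen after seeing the data. At a −log10 q of at least 2 in both lists, 10 of the 15 and 6 of the 9 promoters kept their call, as did 32 of the 51 and 33 of the 47 bodies. At a fold enrichment of at least 3 these were 3, 0, 15 and 10. The causes of these shifts were not tested. The depth of the lists and the weak fold enrichment of one-sided peaks limit how firmly single genes can be read.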

Other observations

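Genes of the germline and of the 2-cell embryo, which H3K9me3 and DNA methylation silence in somatic cells, had no one-sided member among 48 and 41 genes, but differed in coverage at single promoters. Lists of this size are too small to set against the one-sided shares of all genes (0.245% and 0.226% of bodies, 0.0721% and 0.0433% of promoters). Of the germline genes 3 promoters were at least 20 points higher in the ICM and 3 in the TE, against 1.07% and 1.13% of all genes. Ddx4, which encodes the germ-cell helicase Vasa, stood at 61.3% in the ICM and 27.0% in the TE, and the piRNA helicase gene Mov10l1 at 55.02% and 29.0%. Mael, another piRNA pathway gene, stood at 28.0% and 57.1%, and the meiotic gene Mei1 at 0% and 27.0%. Of the 2-cell genes 3 promoters were higher in the ICM and 2 in the TE by that margin, against the same shares of all genes. The homeobox genes Obox2 and Obox1 stood at 71.8% and 71.6% in the ICM and 2.30% and 13.6% in the TE, whereas the deubiquitinase gene Usp17lc stood at 21.4% and 74.2%. These families hold close copies, so values of single members are uncertain.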
